A study of Mus musculus with 2 samples.

Results

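The genes described here are the G1 cyclins, the kinases they activate and members of the Rb family. They comprise the D-type cyclin genes Ccnd1, Ccnd2 and Ccnd3, the kinase genes Cdk4, Cdk6 and Cdk2, the E-type cyclin genes Ccne1 and Ccne2, and the pocket protein genes Rb1 and Rbl1. A probe set, the group of short probes that reports a transcript on an Affymetrix array, was taken when its only gene symbol in the platform table was one of these names. The genes were chosen with earlier results of these data known. The rule gave 30 probe sets for 10 genes, of 34945 probe sets with 1 symbol and 18193 genes in all. RNA came from whole mouse lungs at embryonic day 18, shortly before birth, and each array was hybridised with RNA from pooled lungs. The wildtype group had 1 array, labelled as normal lung. The other group had 1 array, from lungs homozygous for nmyc9a, a hypomorphic allele of Mycn, which encodes the transcription factor N-Myc. Age is the only condition that the labels give for both groups, and neither strain nor pool size is given in the sources used here. The comparison asks how transcripts of the machinery that starts a round of DNA replication stood in lungs with reduced N-Myc function.

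In G1 phase, D-type cyclins bind Cdk4 or Cdk6, and the active kinases phosphorylate Rb and its relatives. Phosphorylated pocket proteins release E2F transcription factors, which switch on genes for S phase, among them the E-type cyclins that activate Cdk2. D-type cyclins are made in response to growth factors, and Myc proteins are known to act on several of these genes, Cdk4 and Ccnd2 among them. In the fetal lung the growing epithelial tips and the mesenchyme around them hold dividing cells, and division slows towards birth.

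Signals are linear intensities after a factor of 0.977 was applied to the array labelled Nmyc9a, which set the median log2 ratio to 0 over the probe sets whose mean signal reached the floor. A probe set counted as measured when its mean signal reached a floor of 49.3, the 40th percentile of all signals. A log2 ratio is Nmyc9a over wildtype, with signals under the floor raised to it, so that a ratio against such a signal is a bound. With 1 array per group no test was possible, no difference has a replicate check, and the number of arrays limits the precision. Differences are therefore sized by a 1.5-fold rule and read against the share of all genes past it. The only error the data hold is the disagreement between probe sets of a gene, with a pooled SD of 0.40 (log2) over 5671 genes. The difference between a pair of log2 ratios then has an SD of 0.57.

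Mycn itself read 66.3 in wildtype and 84.8 in the homozygote by its brightest probe set (log2 ratio 0.36). Its other measured probe set read 51.1 and 85.4 (0.74, past 1.5-fold higher), so Mycn signal was not lower in the homozygote. Where its probes lie relative to the altered allele is unknown, so this checks nothing about the label. Lung markers were present, with 7 of 7 type 2 alveolar markers measured (summed signals 30547 and 28801, wildtype first). Sftpd of that list was 1.78-fold lower, Aqp5 (type 1 alveolar) 1.63-fold lower and Slc4a1 (erythroid) 1.71-fold lower. Themis (thymus) was 1.63-fold higher. Markers of proliferating cells were lower in 6 of 8 genes, with summed signals of 2086 and 1258, and none was 1.5-fold higher. All 3 measured smooth muscle markers were lower (3827 and 2242). Of 6 measured liver markers 4 were higher (381 and 1192), and 2 of 4 measured skeletal muscle markers were higher (314 and 664). Ciliated cell markers were higher in 2 of 4 genes (379 and 547) and heart markers in 2 of 5 (1717 and 1638). Among all measured genes, 9.71% were 1.5-fold lower and 6.32% higher. No marker of these lists was at 0 on either array, and the part of these shifts in the results below was not tested. In whole-lung RNA, fewer dividing cells and less transcript per cell cannot be told apart.

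Measured by the brightest probe set of each gene, 4 of the 10 genes were lower by 1.5-fold or more in the Nmyc9a homozygote pool, and none was higher by that much. These were Ccnd2, Cdk4, Ccne2 and Rbl1, but Ccnd2 was short of 1.5-fold after quantile normalization (-0.48) or loess on mean signal (-0.50), and Rbl1 with a pseudocount (-0.58). Among all 12600 measured genes, 9.71% were lower by that rule and 6.32% were higher. The median log2 ratio of the 10 genes was -0.35, against -0.09 for all measured genes. That gap of -0.26 was -0.16 after quantile normalization or loess. Of the remaining 6 genes, Ccnd1, Ccnd3, Cdk2 and Rb1 had ratios between -0.37 and -0.23, and Ccne1 and Cdk6 had ratios above 0. Ratios below 0 were common, at 58.8% of all measured genes, so the sign alone sets 8 of 10 members little apart. By probe set, 25 of the 30 were measured, 11 were lower and 1 was higher. Of those 11, 6 were from Ccnd2, and probe sets of the same gene are not independent. Over all 22457 measured probe sets with 1 gene, 9.24% were lower and 9.31% higher.

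**Figure D1:**
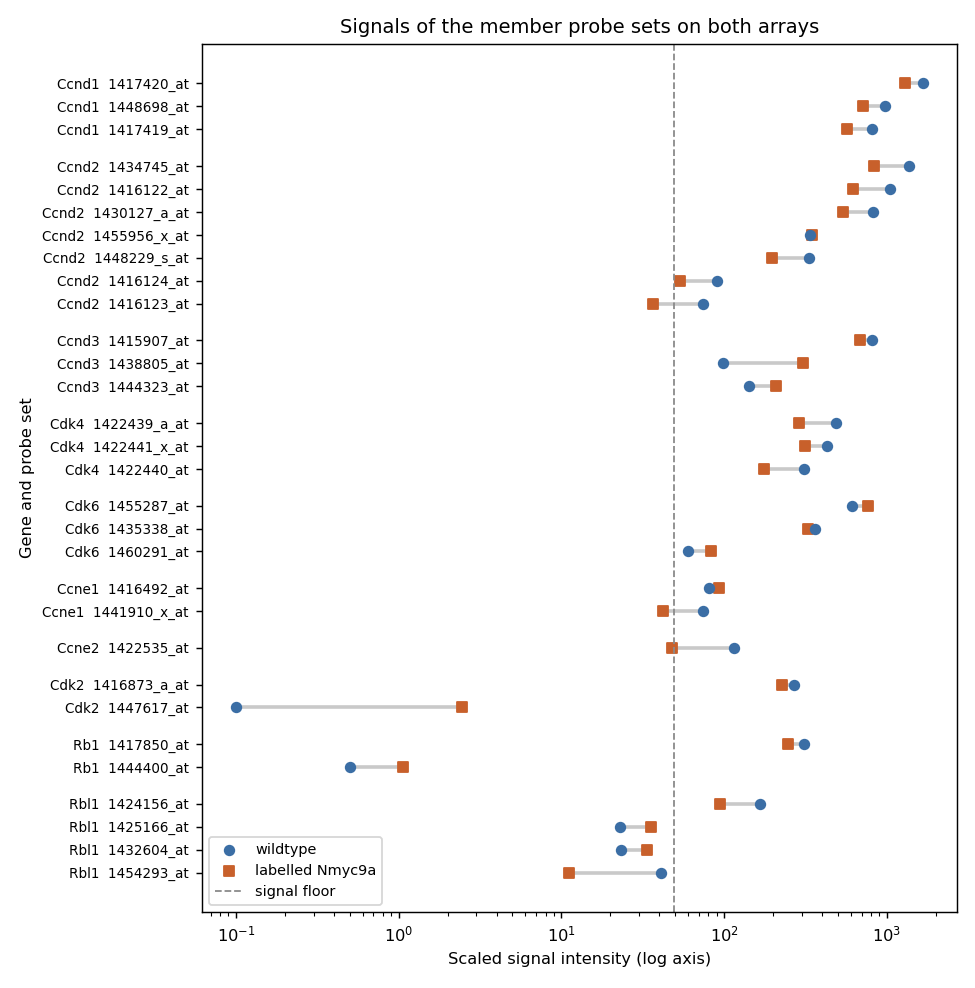
Scaled signal intensity (log axis) of all 30 member probe sets, grouped by gene, with the wildtype array as blue circles, the array labelled Nmyc9a as orange squares and the floor of 49.3 as a dashed line. All 3 Ccnd1, 6 of 7 Ccnd2 and all 3 Cdk4 probe sets have the orange square to the left, and the 5 probe sets wholly left of the line were not measured.

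Among the D-type cyclins, Ccnd2 had the largest difference that its probe sets shared. Cyclin D2 is the D-type cyclin best known for driving division of immature and hormone-responsive cells. Its brightest probe set, 1434745_at, read 1365 in wildtype and 836 in the Nmyc9a homozygote (1.63-fold lower). Probe set 1416122_at read 1052 and 618 (1.70-fold lower), and 1430127_a_at read 821 and 541 (1.52-fold lower). These bright probe sets were lower by like amounts. Probe set 1448229_s_at read 331 and 198, and 1416124_at read 90.7 and 53.8, ratios of -0.74 and -0.75. Probe set 1416123_at read 74.7 and 36.7, the latter under the floor, so it was at least 1.52-fold lower. The exception was 1455956_x_at, at 336 and 345 (log2 ratio 0.04). Names ending in _x_at mark probe sets with probes that can also match other transcripts, and those in _s_at and _a_at mark probe sets shared between transcripts. The 7 probe sets gave a mean log2 ratio of -0.59 ± 0.29 (SD between probe sets), and the 6 without 1455956_x_at gave -0.69 ± 0.08. Both take 1416123_at at its bound of -0.6, whereas its ratio without the floor was -1.02. The close agreement of the 6 is thus partly set by the floor and by leaving out the exception. These probe sets read the same 2 RNA pools, so their spread is that of the probes and not of animals.

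Ccnd1 was lower by a smaller step that all its probe sets shared. Cyclin D1 links growth factor signals to Cdk4 and Cdk6. Its probe sets read 1673 and 1296 (1417420_at), 982 and 718 (1448698_at), and 810.5 and 573 (1417419_at), wildtype first. The log2 ratios were -0.37, -0.45 and -0.50, a mean of -0.44 ± 0.07 (SD between 3 probe sets), and none reached 1.5-fold. The signal on the wildtype array was the higher one for each of the 3. Of 2464 genes with 3 or more measured probe sets, 22.2% had every one of them below 0, as Ccnd1 and Cdk4 did.

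Ccnd3 had no common direction. Cyclin D3 is the D-type cyclin of maturing lymphoid and many differentiating cells. Its brightest probe set, 1415907_at, read 814 and 685, a log2 ratio of -0.25. Probe set 1438805_at read 98 and 306 (3.12-fold higher), the only member probe set past 1.5-fold in that direction. Probe set 1444323_at read 142 and 208, a log2 ratio of 0.56 and just short of 1.5-fold. The platform table lists a RefSeq transcript for 1415907_at and other GenBank sequences for 1438805_at and 1444323_at. The spread of the 3 ratios, an SD of 0.95, was above the pooled SD of 0.40. Opposite signs within a gene were frequent, at 49.7% of the 5671 genes with 2 or more measured probe sets. Among the members with 2 or more measured probe sets, Ccnd2, Ccnd3, Cdk6 and Ccne1 had both signs.

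**Figure D2:**
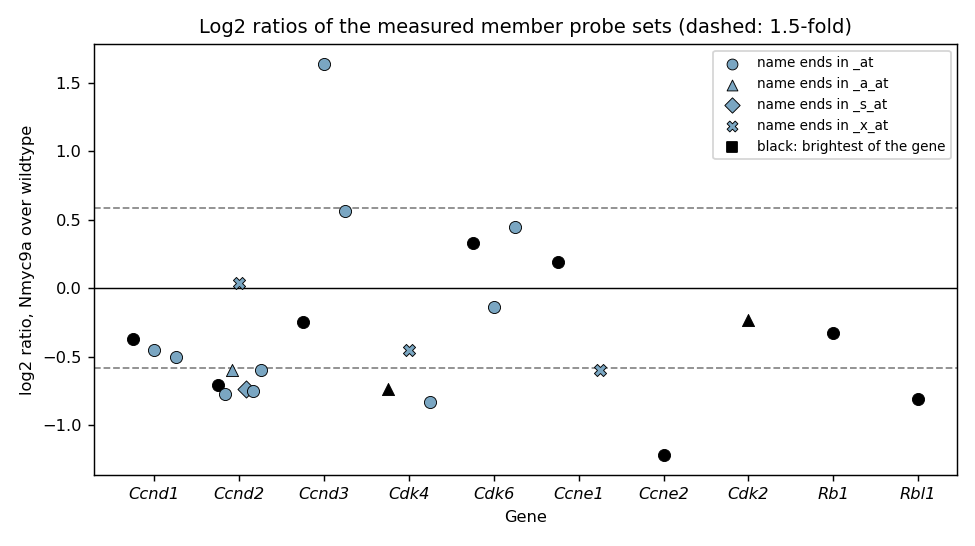
Log2 ratio (Nmyc9a over wildtype) of the 25 measured probe sets by gene, with the brightest of each gene in black, marker shapes for the endings of probe set names and dashed lines at 1.5-fold. Ccnd2 has 6 probe sets below the lower line, with 1416123_at drawn at its bound, and 1455956_x_at at 0.04. The 3 Ccnd3 probe sets run from -0.25 to 1.64.

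The kinase partners of the D-type cyclins differed from each other. Cdk4 and Cdk6 are close relatives that bind the same cyclins. The brightest Cdk4 probe set, 1422439_a_at, read 485 in wildtype and 291 in the homozygote (1.67-fold lower). Probe set 1422440_at read 312 and 175 (1.78-fold lower), and 1422441_x_at read 427 and 313 (1.36-fold lower). All 3 were lower, with a mean log2 ratio of -0.67 ± 0.20 (SD between probe sets), and the 1422441_x_at ratio was the smallest in size. For Cdk6, 1455287_at read 614 and 771 (log2 ratio 0.33), 1435338_at read 360 and 326 (-0.14), and 1460291_at read 60.3 and 82.7 (0.45). No Cdk6 probe set reached 1.5-fold, and their mean log2 ratio was 0.21 ± 0.31. Every Cdk4 ratio lay below every Cdk6 ratio, from -0.83 to -0.45 for Cdk4 and from -0.14 to 0.45 for Cdk6.

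The promoters of these kinases are shown because Cdk4 is an established Myc target and Cdk6 is its closest relative here. Sequences are the 250 bases before the annotated start on the gene's own strand, from RefSeq on GRCm38.p6, at chr10:127063285-127063534 (plus strand) for Cdk4 and chr5:3343643-3343892 (plus strand) for Cdk6. Capitals mark the E-box CACGTG, the site that Myc and Max bind, which reads the same on both strands.
Cdk4: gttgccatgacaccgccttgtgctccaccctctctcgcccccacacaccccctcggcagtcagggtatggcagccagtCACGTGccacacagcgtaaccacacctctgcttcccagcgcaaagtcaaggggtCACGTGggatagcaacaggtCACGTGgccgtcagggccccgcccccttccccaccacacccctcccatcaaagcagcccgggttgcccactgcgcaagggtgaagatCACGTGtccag
Cdk6: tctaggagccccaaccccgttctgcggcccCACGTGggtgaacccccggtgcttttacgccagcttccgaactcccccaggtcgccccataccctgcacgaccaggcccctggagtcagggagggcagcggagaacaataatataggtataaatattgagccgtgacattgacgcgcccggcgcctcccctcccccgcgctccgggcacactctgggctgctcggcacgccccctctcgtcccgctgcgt
The Cdk4 window held 4 E-boxes, at 172, 118, 98 and 11 bases before the start (first base of each), and the Cdk6 window held 1, at 220 bases. An E-box was present in 6.02% of all 32851 windows of this length, and 4 or more in 7 windows of 5 genes. E-boxes did not go with lower ratios over the array: 9.70% of 969 measured genes with an E-box in a window were 1.5-fold lower, and 9.87% of 9166 without. Of the 4 measured genes with 4 or more, 1 was lower, and that gene was Cdk4 itself. A match describes these letters and is no evidence of binding in these lungs.

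E-type cyclins and Cdk2 act next, at the entry to S phase. Ccne2 had the lowest ratio of all members. Its single probe set, 1422535_at, read 114.5 in wildtype and 48.0 in the homozygote, which is just under the floor, so it was at least 2.32-fold lower. Among all measured genes, 1.38% were lower by 2-fold or more, and no other member was. Ccne1, the close relative of Ccne2, was near the floor and uncertain in direction. Probe set 1416492_at read 81.2 and 92.5 (log2 ratio 0.19), and 1441910_x_at read 74.5 and 42.4 (at least 1.51-fold lower). Cdk2, the kinase that both E-type cyclins activate, read 268 and 228 by 1416873_a_at, a log2 ratio of -0.23. Its other probe set, 1447617_at, read 0.10 and 2.44 and was not measured. Ccne2 was lower than Cdk2 by more than the SD of a difference, but not with a pseudocount, where they stood at -0.75 and -0.19. With 1 measured probe set each for Ccne2 and Cdk2, no agreement between probe sets could be examined. Ccne2 was not set against Ccne1, whose probe sets had opposite signs.

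The Rb family members Rb1 and Rbl1 both read lower, with ratios that lay within the SD of a difference of each other in the main setting. They lay further apart than that SD after quantile normalization (-0.3 for Rb1 and -0.93 for Rbl1) or loess (-0.3 and -0.92). Rb1 encodes the retinoblastoma protein, which binds activating E2F factors in resting and early G1 cells. Its probe set 1417850_at read 309 and 246 (log2 ratio -0.33), and 1444400_at read 0.50 and 1.07 and was not measured. Rbl1 encodes p107, a pocket protein that pairs mainly with repressive E2F factors and is itself made from an E2F-regulated gene in dividing cells. Its probe set 1424156_at read 165 and 94.6 (1.75-fold lower). The other 3 Rbl1 probe sets lay below the floor on both arrays, with 1425166_at at 22.8 and 35.5, 1432604_at at 23.4 and 33.6, and 1454293_at at 41.1 and 11.1. The Rbl1 value thus rests on 1 of 4 probe sets. Rbl2, which encodes the third pocket protein p130 and is abundant in resting cells, read 118 and 146 by its brightest probe set (log2 ratio 0.31). By their brightest probe sets, the difference between Rbl1 and Rbl2 was larger than the SD of a difference.

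The promoter windows of Rbl1 and Cdk2 are shown because they held the E2F motif. The motif was searched on both strands as TTTCCCGC, TTTCGCGC, TTTGCCGC or TTTGGCGC, and capitals mark the match. The windows are chr2:157204535-157204784 (minus strand) for Rbl1 and chr10:128705052-128705301 (minus strand) for Cdk2, from the same RefSeq build and written on the gene's strand.
Rbl1: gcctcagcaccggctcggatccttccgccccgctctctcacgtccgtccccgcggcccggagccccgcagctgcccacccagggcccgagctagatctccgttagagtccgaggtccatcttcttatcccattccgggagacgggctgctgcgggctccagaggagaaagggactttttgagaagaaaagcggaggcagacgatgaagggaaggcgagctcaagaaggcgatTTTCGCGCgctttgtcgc
Cdk2: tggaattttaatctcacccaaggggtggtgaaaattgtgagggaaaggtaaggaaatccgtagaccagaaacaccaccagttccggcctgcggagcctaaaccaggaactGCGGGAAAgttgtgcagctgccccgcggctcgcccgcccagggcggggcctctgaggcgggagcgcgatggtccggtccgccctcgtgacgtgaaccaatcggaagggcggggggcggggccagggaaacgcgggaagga
The Rbl1 match, TTTCGCGC, started 18 bases before the annotated start, and the Cdk2 match, TTTCCCGC on the opposite strand, lay 140 to 133 bases before it. The motif was present in 1.86% of all windows. Windows were held for 6 of the 10 members, of which 2 had an E2F motif and 2 (Cdk4 and Cdk6) an E-box. No window was held for Ccnd1, Ccnd2, Ccne2 or Rb1. Counted by gene in the same way, 383 of 10135 measured genes with a window had an E2F motif and 969 an E-box. Over the array, 11.5% of 383 measured genes with an E2F motif in a window were 1.5-fold lower, against 9.79% of 9752 without.

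Ordered by their brightest probe sets from lowest to highest, the ratios ran Ccne2, Rbl1, Cdk4, Ccnd2, Ccnd1, Rb1, Ccnd3, Cdk2, Ccne1 and Cdk6. No pair of neighbours in this order was further apart than 0.42, within the SD of a difference of 0.57. The ends of the order were 1.54 apart. The places of Ccnd3 and Ccne1 depended on the probe set: by the median of probe sets Ccnd3 stood at 0.56, above Cdk6 at 0.33, and Ccne1 stood at -0.20. Within the lower 4, Rbl1, Cdk4 and Ccnd2 differed by 0.10 at most and could not be ranked.

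Inhibitors of the G1 kinases showed small differences. None of the 3 measured INK4 genes, whose proteins block Cdk4 and Cdk6, reached 1.5-fold, and all 3 were below 0. Cdkn2d (p19) read 309 and 222, Cdkn2c (p18) read 270.0 and 207, and Cdkn2b (p15) read 519 and 492, while Cdkn2a was under the floor at 36.3 and 37.5. None of the 3 Cip/Kip genes reached 1.5-fold. Cdkn1c (p57), mutated in a fetal overgrowth syndrome, read 1994 and 1702. Cdkn1a (p21) read 404 and 335, and Cdkn1b (p27) read 559 and 609. No inhibitor was thus 1.5-fold higher on the array labelled Nmyc9a.

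Many genes downstream of the pocket proteins read lower. Of 16 measured E2F target genes of S phase, 12 were lower by 1.5-fold or more and 1 was higher. Their median log2 ratio was -0.86. Mcm5, a subunit of the replicative helicase, read 324 and 93.1 (3.48-fold lower) by its brightest probe set, whose name ends in _x_at. Its other measured probe set was lower by less, at 163 and 83.2 (log2 ratio -0.97). Tk1, thymidine kinase, read 139 and 35.4 (at least 2.81-fold lower). At the other end, Orc1, a subunit of the origin recognition complex, stood at -0.07. Cdc45, a helicase cofactor, was at least 2.85-fold higher by its brightest probe set (28.5 and 140), but its other probe set read 88.6 and 34.2 (log2 ratio -0.85). Of 17 genes of this list with a promoter window, 8 had the E2F motif, beside 383 of 10135 measured genes with a window. The set was chosen with its lower signals on these arrays already known, so its count adds no independent support.

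The E2F factors and their DP partners were mixed. Of 10 measured genes, 3 were lower and none was higher. The median was -0.26. E2f1, an activator, read 141 and 84.6 by its brightest probe set (1.67-fold lower), and 66.3 and 72.4 by its other measured one (log2 ratio 0.13). E2f6, a repressor, read 137 and 86.5, and Tfdp2, a DP partner, read 350.4 and 221, both 1.59-fold lower. Tfdp2 was named after its value was seen, and its 4 measured probe sets had ratios of -0.67, 0.24, -0.92 and 0.91. By the median of each gene's probe sets, or with the floor at the 60th percentile, 1 gene of this list was 1.5-fold lower, and with a pseudocount equal to the floor none was. E2f5 stood at 0.14 and E2f8 at 0.29 or higher, the latter from signals near the floor.

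Of 5 cyclin and kinase genes of S, G2 and M phase, 2 were lower and none was higher. The median was -0.46. Ccna2, cyclin A2, read 382 and 196 (1.95-fold lower) and Cdk1 read 490 and 320.1 (1.53-fold lower). Ccnb2, a mitotic cyclin, stood at -0.41, and Ccna1, the germ line cyclin A, at -0.04. The Cdk1 value lay just past 1.5-fold, and 1 gene of this list was lower in the signals as deposited, with the higher floor or with the pseudocount.

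Ubiquitin ligase genes that control G1 cyclins and p27 held 2 lower genes and 1 higher among 9. Skp2, which marks p27 for destruction, read 234 and 102 (2.29-fold lower), and 5 of its 6 measured probe sets were below 0. Cks1b, the Skp2 cofactor, read 1086 and 544 (2.0-fold lower). Fbxo31 stood at 0.24, and Rbx1, a ring-finger subunit shared by many such ligases, read 49.7 and 148 on its 1 probe set (2.97-fold higher, from a wildtype signal at the floor).

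The remaining lists had few genes past 1.5-fold. Among 4 measured DREAM and MuvB subunits, which assemble with p107 or p130 on cell cycle promoters, Lin52 was at least 2.41-fold higher (46.8 and 119), although its other probe set read 82.7 and 81.9. Rbbp4 stood at -0.51, Lin37 at -0.22 and Lin54 at 0.14. The other Rbbp4 probe sets stood at -0.35, -0.83 and 0.88. By their brightest probe sets, none of 5 partners of the pocket proteins reached 1.5-fold, and all 5 were below 0. They ran from Rbbp7 (-0.54) and Hdac1 (-0.48) to Smarca4 (-0.19) and Kdm5a (-0.12). Another probe set was past 1.5-fold higher for Kdm5a (83.8 and 171, log2 ratio 1.03) and for Hdac2 (170 and 297, 0.81). Of the measured probe sets, 2 of 5 for Kdm5a and 2 of 3 for Hdac2 were below 0. None of the 4 genes for the Cdk-activating kinase and the phosphatase Cdc25a reached 1.5-fold by the brightest probe set. Ccnh stood at -0.31, Cdc25a at -0.25, Mnat1 at -0.23 and Cdk7 at 0.01. The other measured Cdk7 probe sets stood at -0.5, 0.25, 0.89 and 0.48. Over the 60 measured pathway genes outside the members and the Myc genes, 19 were lower, 3 were higher and the median was -0.38, beside 9.71% lower, 6.32% higher and -0.09 for all measured genes. Of those 19 lower genes 12 were the E2F targets, chosen with their lower signals known. Without that list 7 of 44 were lower and 2 higher, with a median of -0.24. The other lists were also chosen with earlier results of these data known, so this count is no independent support either. Of the Myc genes, Myc stood at -0.32 (84.5 and 67.6), Mycl at 0.24 and Mycn at 0.36 (0.74 by its other measured probe set).

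**Figure D3:**
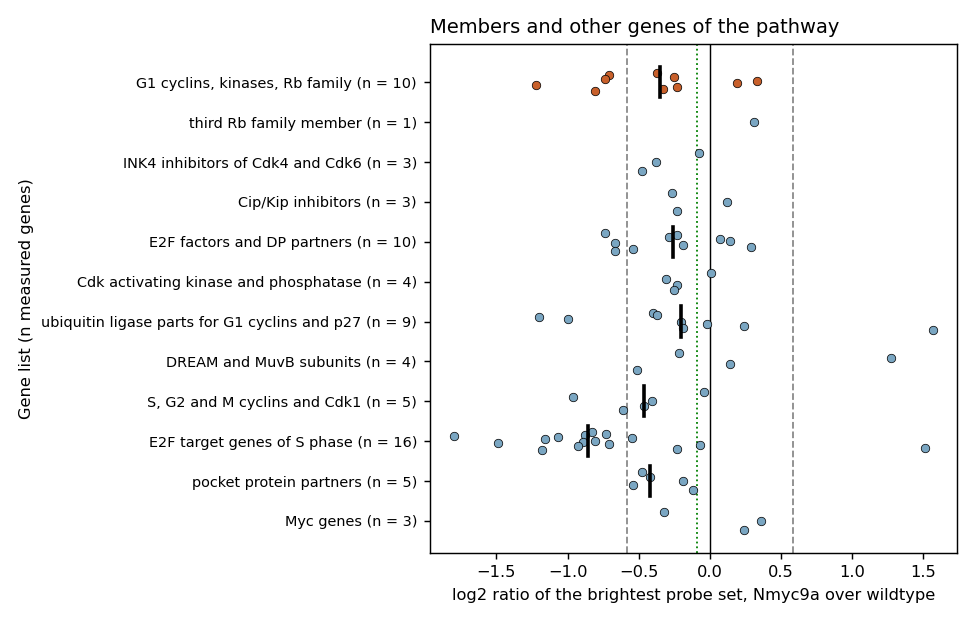
Log2 ratios (Nmyc9a over wildtype) of the brightest probe set for the 10 members (orange) and the measured genes of each pathway list (blue), with black bars at the medians of lists of 5 or more, dashed lines at 1.5-fold and a dotted line at the median of all measured genes, -0.09. The E2F target genes lie furthest left, with a median of -0.86, and the members and most other lists have medians between that and 0.

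The members' ratios were recomputed under other ways of scaling, flooring and summarising. Cdk4 and Ccne2 stayed at least 1.5-fold lower wherever they were measured, with log2 ratios from -0.83 to -0.65 and from -1.31 to -0.75. Ccnd2 kept its direction under all 10 alternatives but stood at -0.48 after quantile normalization and -0.50 after loess on mean signal, short of 1.5-fold. Rbl1 was just short of 1.5-fold with a pseudocount equal to the floor, at -0.58. Ccnd1, which has bright probe sets, stood at -0.14 after quantile normalization. Bright genes as a class lay lower, by a split chosen after the data were seen: the 2239 genes with a mean signal of 500 or more had a median of -0.22, against -0.05 for dimmer genes, and 11.3% of them were 1.5-fold lower and 1.70% higher. Ccnd3 turned from -0.25 to 0.56 when the median of its probe sets was taken, and Ccne1 from 0.19 to -0.20. Cdk6 stood above 0 in every setting, from 0.29 to 0.50.

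**Figure D4:**
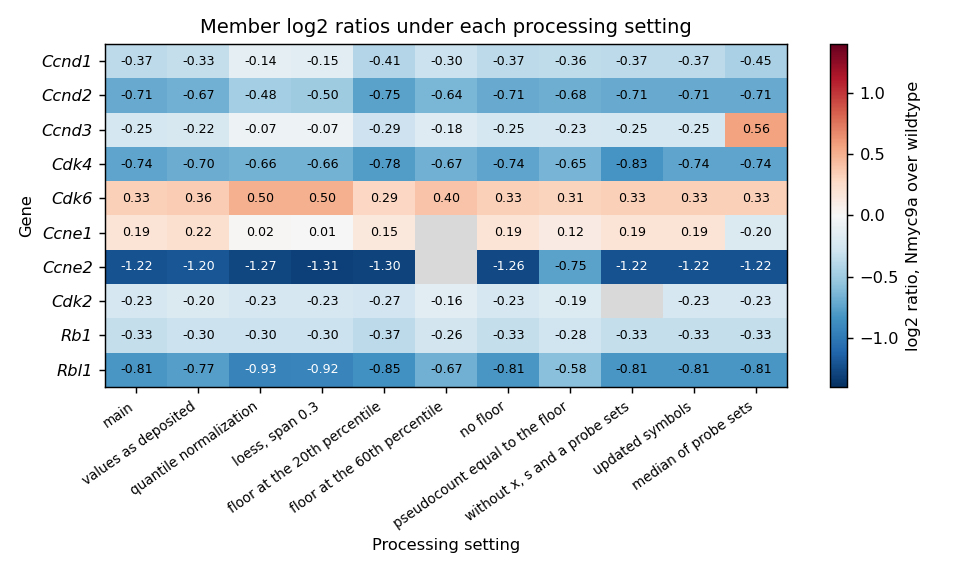
Log2 ratio (Nmyc9a over wildtype) of each member under the main and 10 alternative processing settings, printed in each cell and coloured from blue (lower) to red (higher), with grey where a gene was not measured. Rows for Ccnd2, Cdk4, Ccne2 and Rbl1 are blue across, the Cdk6 row is red across, and Ccnd3 and Ccne1 change sign in the last column.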

How the data were processed

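RNA from pooled whole lungs was hybridised to 2 Affymetrix arrays, 1 per group, after Trizol and RNeasy extraction and biotin labelling, per the labels. The authors deposited a linear signal intensity per probe set. How it was summarised or scaled is not given in the sources used here. Both arrays of deposited intensities had a trimmed mean of 150, with 2% removed at each end, and their medians were 66 and 77.7.

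Of 45101 probe sets, 64 controls were set aside. The scaling factor, floor and size rule are given in the report. Genes were named from the platform annotation (34945 probe sets with 1 gene symbol, 932 with several and 9160 with none), and the probe sets with several were not used. As an alternative, symbols were updated through Entrez identifiers to RefSeq, which matched 34754. A gene took its brightest probe set, and 12600 genes were measured. Named genes were all members and the 2 highest and 2 lowest genes of each pathway list. Members and lists were chosen with earlier results of these data known. Alternatives were the deposited values, quantile normalization, loess (span 0.3), other floors, a pseudocount, the median of probe sets, probe sets without x, s or a endings, and a 2-fold rule. Scaling and calls were tested on simulated data. Python 3.11.15, numpy 2.4.6, pandas 2.3.3 and scipy 1.17.1 were used.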

Additional observations from a re-analysis of the deposited data

How the results depend on the processing

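The count of member genes at least 1.5-fold lower was 4 and lay at 3 or 4 under every alternative except the 2-fold rule, which left 1. None was higher under any of them. The share of all measured genes that were lower ran from 5.33% with a pseudocount to 13.6% at the 20th percentile floor, and was 1.38% by the 2-fold rule. Member probe sets that were lower numbered 11, of which 6 were from Ccnd2. A floor at the 60th percentile gave 6, a pseudocount 6, omission of x, s and a probe sets 7 and the 2-fold rule 1. The others gave 8 to 12. Of all probe sets 6.40%, 4.81%, 7.88% and 1.36% were lower in the first 4 of these settings, and up to 13.1% in the others. Member probe sets that were higher numbered 1, but 2 in the values as deposited, 2 at the 20th percentile floor and 2 at the 60th. The median member ratio ran from -0.39 to -0.27, and no member called lower changed sign. Of the pathway genes, 19 were lower and 3 higher. With a pseudocount 12 were lower, and 0 were higher once the floor was the 60th percentile. A pseudocount shrinks all ratios and a higher floor measures fewer genes; otherwise the cause was not tested. That floor left Ccne1 and Ccne2 unmeasured, and Cdk2 had no measured probe set without x, s and a probe sets. No paired analysis was possible because each group had 1 array. Signal close to the floor limits Ccne1, Ccne2 and 3 of the 4 Rbl1 probe sets.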

Other observations

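Member probe sets were also sorted by the kind of sequence that the platform table lists for them. Of the 15 with a RefSeq transcript, all were measured, 13 were below 0, 6 were at least 1.5-fold lower and none was higher. Of the 8 measured with another GenBank sequence, 5 were below 0, 4 were lower and 1, from Ccnd3, was higher. Of the 2 measured with no sequence listed, 1 was lower. No difference between these classes was tested, and the member probe sets are too few to compare their shares with those over the whole array. There, probe sets with a RefSeq transcript were 1.5-fold lower in 13.5% and higher in 5.22% of 3892, with a median log2 ratio of -0.15. Those with another GenBank sequence were lower in 8.0% and higher in 10.6% of 16668, with a median of -0.02.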
